A study of Arabidopsis thaliana with 7 samples.

Results

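BCAT4 (AT3G19710) and AT2G31790, the gene of the glucosyltransferase UGT74C1, are genes of aliphatic glucosinolate synthesis in Arabidopsis thaliana. They were taken as every probe set annotated to either gene. This gave 2 probe sets, 257021_at for BCAT4 and 263477_at for AT2G31790, of 22810 on the array, and 2 genes of the 13286 that a probe set named alone. Both were followed on all 7 arrays of a study of WRKY transcription factors and leaf senescence.

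RNA came from whole rosettes of 14-day-old plants. The arrays measured wrky18, wrky40, wrky53 and wrky60 T-DNA knockout plants, a wrky18 wrky40 double knockout and wild-type Col-0 plants, all given the bacterium Pseudomonas syringae Pst-DC3000 (Pst below), and mock wild-type Col-0 plants given MgCl2. No mutant was measured after the mock treatment. The titles give each mutant a knockout code, and the labels name no insertion lines beyond it and no harvest time. Plants of all groups grew on soil that held the insecticide imidacloprid and a slow-release fertiliser. Each group had 1 array, so there is no replicate error, no test and no p-value. A difference between arrays cannot be told apart from variation between plants or hybridisations. Nor can a change in the share of a cell type in the rosette be told apart from one in RNA per cell.

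Glucosinolates are sulfur-containing defence compounds of the cabbage order, stored intact and cleaved by myrosinases when tissue is damaged. Aliphatic glucosinolates are built from methionine. Its side chain is first lengthened, the elongated amino acid is then turned into the glucosinolate core, and the side chain is modified last. BCAT4 acts at the entry of chain elongation, where it removes the amino group of methionine. UGT74C1 is a glucosyltransferase placed in core synthesis, where glucose is added to the thiohydroximate intermediate before sulfation. In Arabidopsis, MYB28, MYB29 and MYB76 activate the aliphatic genes together with the jasmonate-responsive MYC2, MYC3 and MYC4. Pst-DC3000 makes coronatine, which mimics the active form of jasmonate. WRKY18, WRKY40 and WRKY60 are the group II-A WRKY factors of Arabidopsis, and WRKY53 is a WRKY factor linked to leaf senescence.

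The values are MAS5 signals on a linear scale, which summarise the probes of a probe set after each array was scaled to a common level. Signals below 22.1 were set to 22.1 before taking log2, and a gene with a mean signal at or above this floor is called measured here, as 7259 genes were. Both members lay well above the floor on every array, between 6.83 and 14.6 times it for AT2G31790 and between 13.2 and 35.8 times it for BCAT4. Of the measured genes, 6.82% had a higher mean signal than BCAT4 and 19.1% a higher one than AT2G31790.

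As a check of labels, the WRKY53 signal was 3.07 in the wrky53 mutant. It was 79.3 to 140.8 on the other Pst arrays, with 107 in the wild type after Pst, and 358 on the mock array. WRKY18, WRKY40 and WRKY60 were not checked, since no probe set named one of them alone. The leaf markers PRK and RCA, genes of the Calvin cycle and of Rubisco activation, had signals of at least 1053 and 2657 on every array, and the root hair gene EXPA7 stayed below the floor with at most 14.2. No flower, seed or senescence marker was named alone by a probe set. The wrky60 array stood apart from the rest: its 9 bacterial spike-in controls had, in the median, 7.74 times their mean signal on the other arrays, and the 40th percentile of its signals was 31.3, against 21.6 or less on each other array. Values from it are therefore given last, and spans and correlations over arrays are given with and without it.

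BCAT4 had the highest signal after Pst on the wrky53 array and the lowest on the mock array. Its signal was 408 on the wrky18 array, 484 on the wrky40 array, 385 on the double mutant array, 790.4 on the wrky53 array and 737 on the wrky60 array, against 549 on the wild-type Pst array and 290.5 on the mock array. The wrky18, wrky40 and double mutant arrays thus lay between the 2 wild-type arrays, and the wrky53 and wrky60 arrays lay above both.

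AT2G31790 had signals of 190.4 on the wrky18 array, 206 on the wrky40 array, 189 on the double mutant array, 322 on the wrky53 array and 254 on the wrky60 array, against 218 on the wild-type Pst array and 151 on the mock array. The order of the 7 arrays was the one seen for BCAT4. From the highest signal down it ran wrky53, wrky60, wild type after Pst, wrky40, wrky18, double mutant and mock. All 21 pairs of arrays therefore differed in the same direction for both genes.

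**Figure D1:**
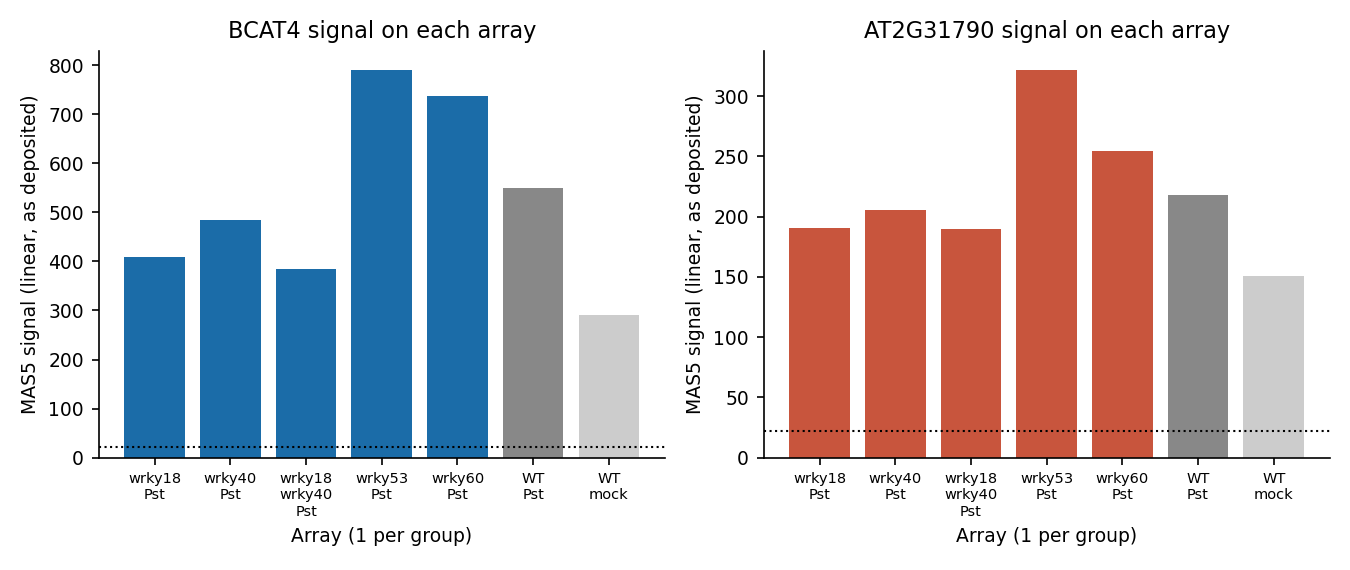
MAS5 signal (linear scale) of BCAT4 (left) and AT2G31790 (right) on the 7 arrays, with 1 bar per array and so no error bars; coloured bars are mutants after Pst, dark grey the wild type after Pst, light grey the mock wild type, and the dotted line is the floor of 22.1. The wrky53 bar is the highest in both panels, at 790.4 and 322, and the mock bar the lowest, at 290.5 and 151.

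Some neighbours in this order were close. For AT2G31790 the double mutant array lay 1.01-fold below the wrky18 array and the wrky40 array 1.06-fold below the wild-type Pst array. For BCAT4 the double mutant array lay 1.06-fold below the wrky18 array, and the wrky53 array was 1.07 times the wrky60 array. The widest steps between neighbours were 1.34-fold for BCAT4, between the wrky60 and the wild-type Pst array, and 1.27-fold for AT2G31790, between the wrky53 and the wrky60 array. With 1 array per group no step can be set against a replicate spread. The order was kept for both genes under the scalings that could change it, which were quantile normalization with and without the wrky60 array, median centring and cyclic loess. The other floors lie below every signal of both genes, adding a constant keeps any order, and each gene has 1 probe set, so those alternatives could not change it.

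Over the 7 arrays BCAT4 spanned 2.72-fold and AT2G31790 2.13-fold between the lowest and the highest signal. The median span of measured genes was 1.74-fold, and 11.5% of them spanned more than BCAT4 and 26.6% more than AT2G31790. Without wrky60 the members' spans were as before, with a median of 1.48-fold, and 4.35% and 9.93% of measured genes spanned more. On the 5 Pst arrays other than wrky60 the spans were 2.05-fold for BCAT4 and 1.70-fold for AT2G31790, against a median of 1.40-fold. There 6.89% of measured genes spanned more than BCAT4 and 19.5% more than AT2G31790.

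The wild type after Pst was set against the mock wild type, with 1 array each. BCAT4 had a signal of 549 on the Pst array and 290.5 on the mock array, which is 1.89-fold higher, a log2 ratio of 0.92. AT2G31790 had 218 on the Pst array and 151 on the mock array, 1.44-fold higher, with a log2 ratio of 0.53. Neither reached 2-fold, which 1.89% of measured genes passed upwards and 1.9% downwards. The median log2 ratio of all measured genes was 0.01, and 2.11% of them had a higher ratio than BCAT4 and 7.25% a higher one than AT2G31790. BCAT4 thus stood nearer the top of these ratios than AT2G31790.

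Both genes were lower on the arrays of wrky18, wrky40 and their double mutant than on the wild-type Pst array. All ratios of mutants to the wild type after Pst share that 1 array and its error. In the wrky18 mutant BCAT4 had 408 against 549 in the wild type after Pst, a log2 ratio of -0.43, and AT2G31790 had 190.4 against 218, a ratio of -0.19. Of measured genes, 13.1% had a lower ratio than BCAT4 and 31.5% a lower one than AT2G31790. In this comparison 0.179% of measured genes passed 2-fold upwards and 0.606% downwards, and neither member was among them.

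In the wrky40 mutant both genes were close to the wild type after Pst. BCAT4 had a log2 ratio of -0.18 and AT2G31790 one of -0.08, with 22.7% and 37.1% of measured genes lower still. Here 0.11% of measured genes passed 2-fold upwards and 0.152% downwards, the members again not among them. Set against the median of the other Pst arrays without wrky60, in place of the wild type, these ratios turned to 0.03 and 0.02.

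The wrky18 wrky40 double mutant had the lowest signals of both genes among the Pst arrays. BCAT4 had 385 there against 549 on the wild-type Pst array, 1.42-fold lower with a log2 ratio of -0.51, and 6.1% of measured genes had a lower ratio. AT2G31790 had 189 against 218, a ratio of -0.20, with 28.5% of measured genes lower. Against the wild type, 1.25% of measured genes passed 2-fold upwards in the double mutant and 0.152% downwards, with neither member among them. Its median over all measured genes was -0.04.

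The double mutant differed little from the wrky18 single mutant in either gene. BCAT4 had 385 on the double mutant array and 408 on the wrky18 array, a log2 ratio of -0.08, and AT2G31790 had 189 and 190.4, a ratio of -0.01. In that comparison 1.31% of measured genes passed 2-fold upwards and 0.344% downwards. Against the wrky40 single mutant the log2 ratios were -0.33 for BCAT4, with 14.7% of measured genes lower, and -0.12 for AT2G31790, with 37.1% lower. Relative to wrky40, 0.689% of measured genes passed 2-fold upwards and 0.207% downwards, with neither member among these or those that passed against wrky18.

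The wrky53 mutant went the other way, with both genes higher than in the wild type after Pst. BCAT4 had 790.4 against 549, 1.44-fold higher with a log2 ratio of 0.53, and AT2G31790 had 322 against 218, 1.48-fold higher with a ratio of 0.56. Of measured genes, 3.25% had a higher ratio than BCAT4 and 2.58% a higher one than AT2G31790. This was the 1 comparison with the wild-type Pst array in which AT2G31790 differed by more than BCAT4. Neither passed 2-fold, as 0.22% of measured genes did upwards and 0.923% downwards. The median of all measured genes was 0.02.

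On the wrky60 array BCAT4 had 737 against 549 on the wild-type Pst array, a log2 ratio of 0.42, and AT2G31790 had 254 against 218, a ratio of 0.22. More measured genes passed 2-fold here than in the other mutants against the wild type, 7.56% upwards and 4.31% downwards, and neither member did. Of measured genes, 25.7% had a higher ratio than BCAT4 and 36.6% a higher one than AT2G31790. The part of the array's own difference in these values was not tested.

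**Figure D2:**
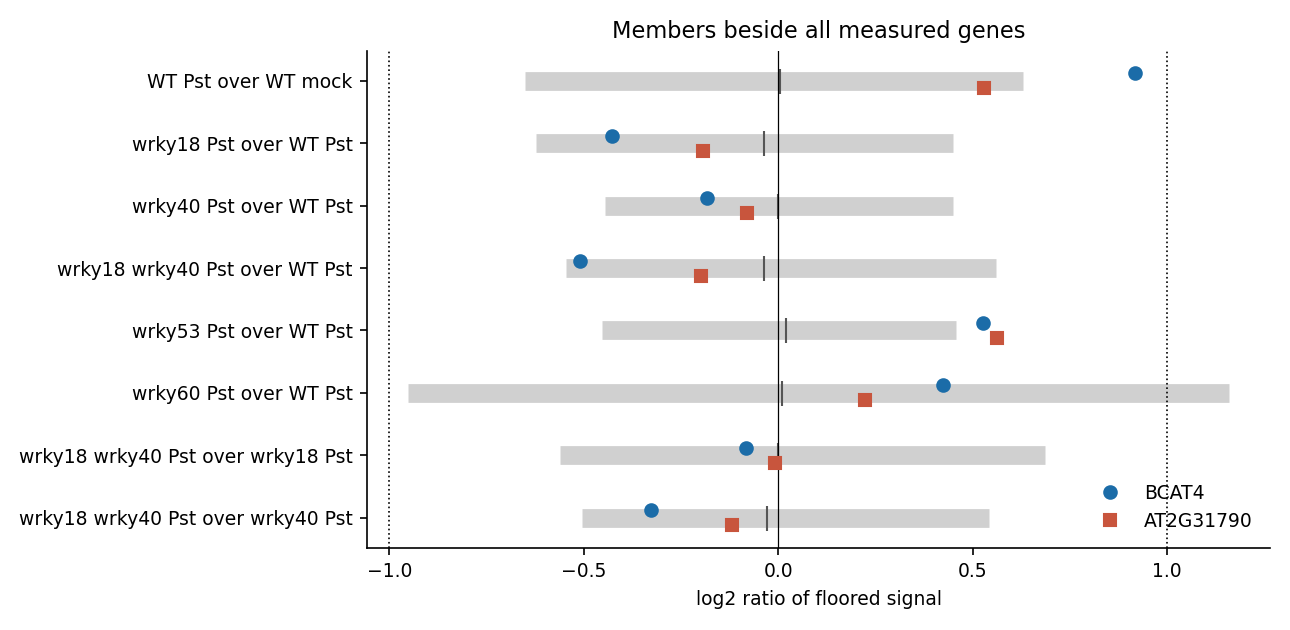
Log2 ratio of floored signal of BCAT4 (circles) and AT2G31790 (squares) in the 8 comparisons; grey bars run from the 5th to the 95th percentile of the 7259 measured genes, ticks mark their median and dotted lines 2-fold. Both members lie to the right of the grey bar for wrky53, at 0.53 and 0.56, BCAT4 does so for the wild type after Pst over mock, at 0.92, and no point reaches 2-fold.

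The widest difference between Pst arrays other than wrky60 was that of wrky53 and the double mutant, a comparison added after the values were seen. BCAT4 was 2.05-fold higher on the wrky53 array than on the double mutant array, with a log2 ratio of 1.04, and AT2G31790 was 1.70-fold higher, with a ratio of 0.76. Of measured genes, 0.84% had a higher ratio than BCAT4 and 3.21% a higher one than AT2G31790. The 2-fold mark was passed upwards by 0.978% of measured genes and downwards by 2.84%. BCAT4 was at 2-fold only just, with log2 ratios between 0.99 and 1.10 over the alternatives.

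Relative to the mock array, every Pst array had higher signals of both genes. For BCAT4 the log2 ratios to mock were 0.49 on the wrky18 array, 0.74 on the wrky40 array, 0.41 on the double mutant array, 1.44 on the wrky53 array and 1.34 on the wrky60 array, against 0.92 for the wild type. For AT2G31790 they were 0.34, 0.45, 0.33, 1.09 and 0.75 on the same arrays in that order, against 0.53 for the wild type. The double mutant thus held 44.4% of the wild type's log2 difference from mock for BCAT4 and 62.2% for AT2G31790, and the wrky53 mutant 157% and 207%. All these ratios share the wild-type mock array and its error. No mutant was measured after the mock treatment, so genotype and treatment cannot be told apart in the mutants' ratios.

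**Figure D3:**
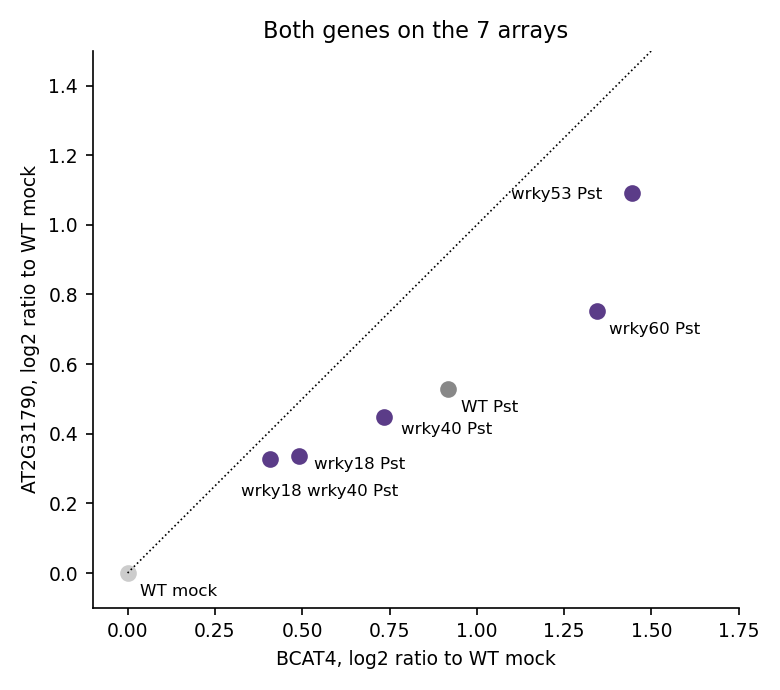
Log2 ratio to the mock wild-type array of AT2G31790 (vertical) against BCAT4 (horizontal), 1 point per array, with mutants in purple, the wild type after Pst in dark grey and mock at the origin; the dotted line marks equal ratios. All 6 Pst arrays lie below that line, from the double mutant at 0.41 and 0.33 to wrky53 at 1.44 and 1.09.

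Across the 7 arrays the log2 signals of BCAT4 and AT2G31790 had a Pearson r of 0.97 and a Spearman rho of 1. Without the wrky60 array r was 0.98 over 6 arrays. Without the mock and wrky53 arrays, the 2 farthest from the median of BCAT4, it was 0.996 over 5 arrays. Points of 1 array share its RNA, hybridisation and scaling, and the genes were put together with their signals known, so these values are a description and no p is given.

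Besides BCAT4, 8 measured genes, or 0.11%, had the order of all 7 arrays that the members share, which is a description, since any fixed order of so many arrays is held by few genes: AT2G31790, AT1G14130, AT1G26930, AT2G43530, AT2G43535, AT3G58830, AT4G08170 and CKS, which encodes CMP-KDO synthetase. Over the 6 arrays without wrky60 the number was 28, or 0.386%.

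The rest of the pathway could be followed only in part. Lists of regulators, chain elongation, core structure and side chain genes held 40 genes, of which 10 had a probe set naming them alone and 8 were measured. Beside the members these were the regulators MYC3, MYC4 and SDI2 (AT1G04770), the core genes GSTU20 and UGT74B1, and GS-OH (AT2G25450) of side chain modification. The chain elongation list of 10 genes held no measured gene other than BCAT4, so the levels of its other steps were not analysed here.

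UGT74B1, the other UGT74 enzyme of core synthesis, differed most of these 6 genes between the wild-type Pst and mock arrays. Its pattern over the mutants was not that of AT2G31790. It had a signal of 603 on the wild-type Pst array and 267 on the mock array, 2.26-fold higher. Among mutants it had 712 in wrky18, 661.5 in wrky40, 897 in the double mutant, 667 in wrky53 and 904 in wrky60. The double mutant, which had the lowest Pst signal of AT2G31790, had a UGT74B1 signal 1.49-fold above the wild-type Pst array. The Pearson r of UGT74B1 was 0.55 to AT2G31790 and 0.58 to BCAT4 over 7 arrays, and 0.49 and 0.48 without wrky60.

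GSTU20, a glutathione transferase placed in core synthesis, differed from the wild type after Pst in the same direction as the members in 4 of the 5 mutants. It had signals of 509 in wrky18, 450.4 in wrky40, 404 in the double mutant, 655 in wrky53 and 441 in wrky60, against 579.5 in the wild type after Pst and 459 in mock. It was thus lower than the wild type in the 3 wrky18 and wrky40 genotypes, as the members were, but also in wrky60, and it was highest in wrky53. Its r was 0.61 to AT2G31790 and 0.52 to BCAT4 over 7 arrays, and 0.77 and 0.80 without wrky60.

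GS-OH, a dioxygenase that hydroxylates the side chain, varied least of the 6 genes. Its signals ran from 764 to 1001 on the mutant arrays, against 930.4 in the wild type after Pst and 757 in mock. MYC3, a bHLH factor that acts with the MYB activators, had 318 in wrky53, its highest signal, against 233 in the wild type after Pst and 169 in mock. It was also above the wild type after Pst in wrky18, at 269.9, in wrky40, at 244.3, and in the double mutant, at 245.7, where both members were below it. With 289 in wrky60, MYC3 was above the wild-type Pst array in every mutant. Its r to AT2G31790 was 0.87 over 7 arrays and 0.85 without wrky60, and to BCAT4 0.83 and 0.82. MYC4, its close relative, was low throughout, with 34.2 to 60.1 over all arrays. The r of MYC4 to AT2G31790 was 0.24 over 7 arrays and 0.59 without wrky60, and to BCAT4 0.04 and 0.50.

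SDI2, related to the sulfur-deficiency protein SDI1 that represses aliphatic glucosinolate synthesis in Arabidopsis, lay near the floor. It had 39.3 in the double mutant, its highest signal, and 31.1 in wrky53, against 24.4 in the wild type after Pst and 26.9 in mock. Its r was -0.13 to BCAT4 and 0.04 to AT2G31790 over 7 arrays, and 0.02 and 0.15 without wrky60.

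Counted together, 1 of these 6 genes, UGT74B1, passed 2-fold upwards in the wild type after Pst over mock and 0 did so downwards. Of all measured genes, 1.89% and 1.9% did. The median log2 ratio of the 6 genes was 0.32, against 0.01 for all measured genes, and 5 of 6 were above 0. In each of the 5 mutants against the wild type after Pst, 0 of 6 passed 2-fold in either direction. Of all measured genes, 0.11% to 1.25% did so upwards and 0.152% to 0.923% downwards, with 7.56% and 4.31% in wrky60. With such shares, 0 of 6 says little about these genes. The medians of the 6 genes were 0.05 for wrky18, -0.15 for wrky40, 0.09 for the double mutant, 0.22 for wrky53 and 0.01 for wrky60. Those of all measured genes lay between -0.04 and 0.02. In the double mutant 4 of the 6 were above 0, where both members were below it. The share of all measured genes above 0 was not counted.

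AOP1 and AOP3, 2-oxoglutarate-dependent dioxygenases of the side chain locus, were not measured. AOP1 stayed below the floor on all arrays with at most 21.6, and AOP3 was above it on the wrky60 array alone, at 49.0, against 2.02 on the wild-type Pst array and 12.0 on the mock array.

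Genes next to synthesis were measured in small number. PYK10, a beta-glucosidase of endoplasmic reticulum bodies that can cleave glucosinolates, had 783 in wrky53 and 892 in wrky60, against 657 in the wild type after Pst and 364.5 in mock. Its other mutant signals were 610.1 in wrky18, 578 in wrky40 and 654 in the double mutant, and its r to BCAT4 was 0.88 over 7 arrays and 0.84 without wrky60. The glucosinolate transporter genes GTR1 and GTR2 had log2 ratios of 0.36 and 0.75 on the wild-type Pst array over mock. GTR2 was below the wild type after Pst in all 5 mutants, with ratios from -0.45 in wrky53 to -0.15 in the double mutant. GTR1 was at or above it, from 0.01 in wrky53 to 0.37 in wrky18. These mutant ratios all share the wild-type Pst array and its error. That array had the highest GTR2 signal of all arrays, 565.8, and the lowest GTR1 signal of the Pst arrays, 244.1.

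APS3, an ATP sulfurylase that activates sulfate, was 2.36-fold higher on the wild-type Pst array, with 248 against 105 in mock, and had its highest signal of 348 in the double mutant. MGL, a methionine gamma-lyase, had 206 on the wild-type Pst array against 117 in mock, 1.76-fold higher. Neither followed the members in wrky53, where the log2 ratio to the wild type after Pst was -0.02 for both. The indole glucosinolate list of 17 genes and the leucine synthesis list of 4 genes had no gene named alone by a probe set.

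Relatives of the members behaved differently from them. BCAT5, a chloroplast branched-chain aminotransferase of the same family as BCAT4, varied little, between 109.7 and 132 on the Pst arrays of the mutants, against 122 in the wild type after Pst and 106 in mock. BCAT6 was below the floor on every array but wrky60, where it had 48.5. UGT74D1, which lies near AT2G31790 on the same chromosome with 3 protein-coding genes between them, had 177 in wrky18, 130.1 in wrky40, 117 in the double mutant, 162 in wrky53 and 174.5 in wrky60, against 154.5 in the wild type after Pst and 173.7 in mock. It was thus lower, not higher, after Pst in the wild type, and its r to AT2G31790 was 0.10 over 7 arrays and -0.01 without wrky60. UGT74F1 was below the floor on all arrays.

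**Figure D4:**
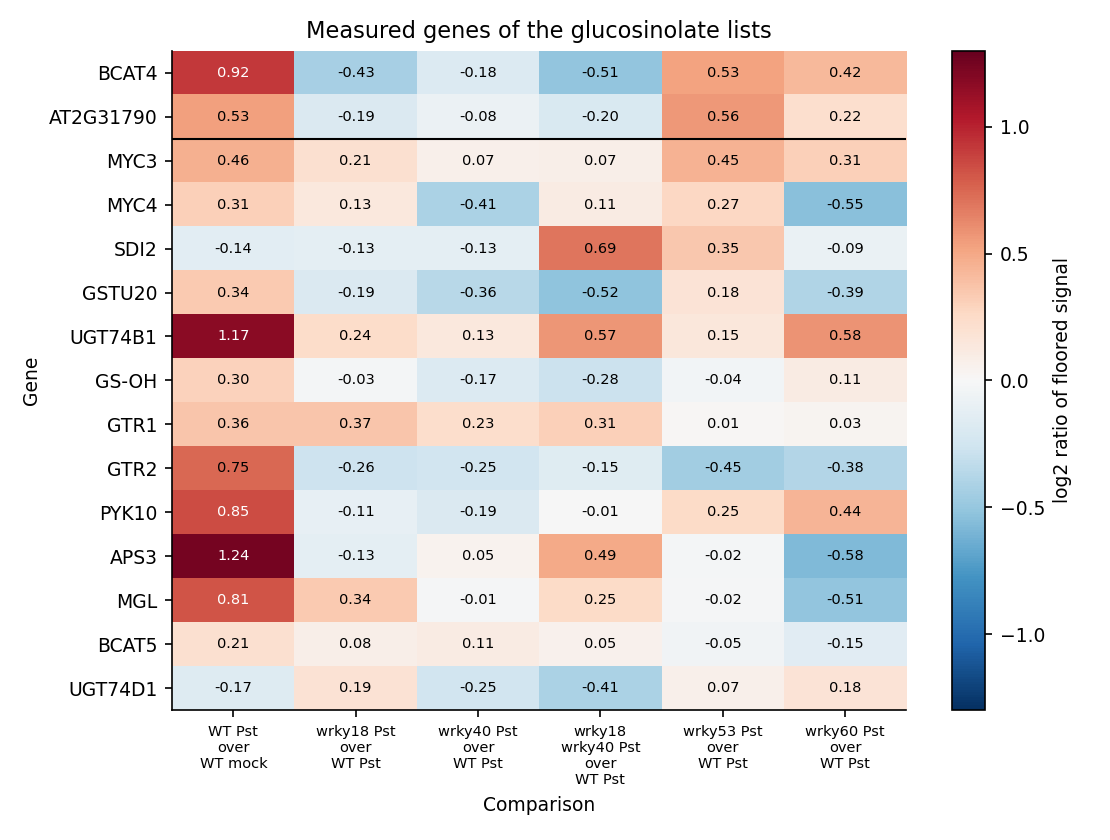
Log2 ratios of floored signal of both members (above the line) and of the 13 other measured genes of the glucosinolate, sulfate, methionine, BCAT and UGT74 lists (rows), in the wild type after Pst over mock and in each mutant over the wild type after Pst (columns), with red higher and blue lower. Both members run from blue in wrky18, wrky40 and the double mutant to red in wrky53, whereas UGT74B1 is red in all columns and GTR2 is blue in all 5 mutants. All mutant columns share the wild-type Pst array and its error, so they are not separate repeats of a direction.

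Among measured genes that spanned at least 2-fold over the arrays, the 5 with the highest Pearson r of log2 signal over 7 arrays were taken as most like each member, out of 2353. For BCAT4 they were AT2G43535, with an r of 0.98, AT5G65380 with 0.97, AT2G43530 with 0.97, AT2G31790 with 0.97 and AT1G26930 with 0.97. For AT2G31790 they were AT3G28270, with an r of 0.98, AT4G10060 with 0.98, AT1G14130 with 0.97, AT5G44050 with 0.97 and BCAT4 with 0.97. Each member was thus among the 5 genes most like the other. This is a description, since both members were put together with their signals known. AT2G43530 and AT2G43535 are next to each other in the gene table, and overlap of their signals was not tested.

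Without the wrky60 array AT2G31790 ranked 4th for BCAT4 and BCAT4 5th for AT2G31790, by r among the same genes. When the 2-fold span was also taken without that array, 2 of the 5 genes named for BCAT4 and 3 of the 5 named for AT2G31790 were still among the first 5. All genes named as most like a member, other than the members themselves, spanned more than both members over all arrays. AT3G28270 had 393.5 on the wrky53 array, against 113 on the wild-type Pst array and 28.6 in mock, and AT2G43535 had 536, against 347 and 83.8 on those arrays. AT5G65380, with an r of 0.99 to BCAT4 without wrky60, had 767 on the wrky53 array and 385 on the double mutant array, against 591 on the wild-type Pst array and 263 in mock.

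**Figure D5:**
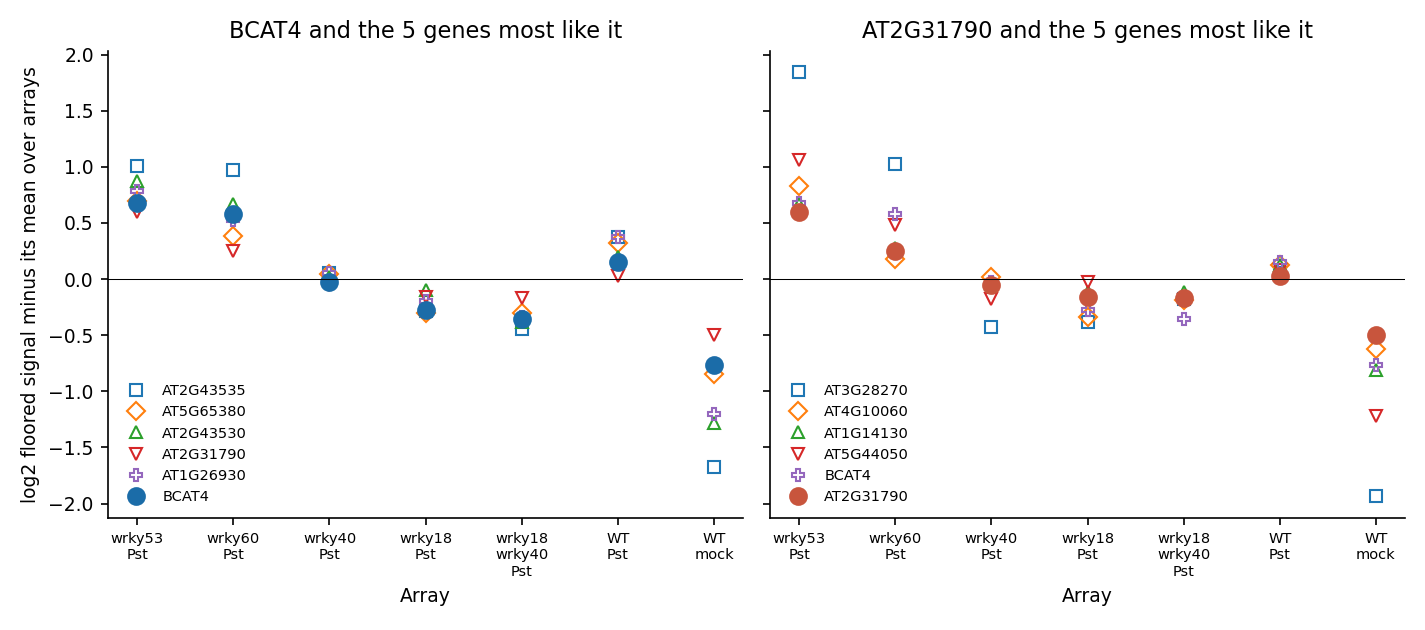
Log2 floored signal minus its mean over the 7 arrays for BCAT4 (left, filled circles) and AT2G31790 (right, filled circles) with the 5 genes most like each (open symbols), 1 position per array. In both panels all genes are highest on the wrky53 array and lowest on the mock array. All genes other than the members spread more widely than the members, AT3G28270 and AT2G43535 the most.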

How the data were processed

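One-colour Affymetrix ATH1 arrays, 1 per group, gave the intensity values, deposited on a linear scale. Per the submitters' processing notes, MAS5 was used (version not given in the sources used here). Trimmed means (2%) of the 7 arrays were 100.01, so the values were used as scaled. Mutant genotypes came from source names, and the wild-type genotype and the treatments from titles. The number of arrays limits the precision.

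Of 22746 probe sets that are not controls, the platform annotation gave 1 gene for 13513, several for 503 and none for 8730. Of the 13513, 13436 matched the TAIR10.1 gene table and were kept. That table also gave the loci, names and neighbours. The probe set with the highest mean signal was kept per gene, leaving 13286 genes. The floor, 22.1, averages the 7 arrays' 40th percentiles of signal over all probe sets that are not controls. With 1 array per group, log2 ratios are given without a test, and 2-fold is a size, not a test.

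Members and gene lists were chosen with earlier results of these data known. Genes named are the members, WRKY53, every measured gene of the lists (none had over 6) and the 5 genes most like each member by Pearson r; unmeasured list genes and genes with the members' order of arrays were named after their values were seen. Alternatives were a floor at the 25th or at the 60th percentile, adding the floor value to all signals in place of flooring, quantile normalization, median centring, cyclic loess (3 iterations), the mean of probe sets and another comparator; quantile normalization without wrky60 was added later. The 2-fold count and the ranking by Pearson r, written out separately, were tried on simulated arrays. The changes planted there were larger than those of the members. Python 3.11.15, numpy 2.4.6, pandas 2.3.3, scipy 1.17.1, R 4.3.3 and limma 3.58.1 were used.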

Additional observations from a re-analysis of the deposited data

Results flagged for a closer look

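Relative to the wild type after Pst, the wrky53 mutant and the wrky18 wrky40 double mutant lay on opposite sides for both genes, with 1 array each. For BCAT4 the log2 ratios were 0.53 in wrky53 and -0.51 in the double mutant, 1.04 apart. For AT2G31790 they were 0.56 and -0.20, 0.76 apart. This difference was not tested, since neither mutant has a second array.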

How the results depend on the processing

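Of 136 log2 ratios of the members recomputed under the alternatives, 134 kept their direction and stayed under 2-fold, within 1.5-fold of the reported value. The other 2 were the wrky40 ratios against the median of the other Pst arrays without wrky60, 0.031 for BCAT4 and 0.016 for AT2G31790. In that setting the comparator was not the wild type, and it lay below the wrky40 signal for both genes. Both genes have 1 probe set and lie above every floor tried, so the probe-set rule and the other floors could not move them. The wild-type Pst ratio to mock ran from 0.87 to 0.93 for BCAT4 and from 0.47 to 0.53 for AT2G31790. Against the wild type, the wrky53 ratio ran from 0.51 to 0.55 for BCAT4 and from 0.52 to 0.59 for AT2G31790. The double mutant ratio to the wild type ran from -0.54 to -0.47 and from -0.20 to -0.16. Ranges were wider for their size in wrky18 and wrky60. The wrky18 ratio to the wild type ran from -0.47 to -0.335 for BCAT4 and from -0.19 to -0.10 for AT2G31790. The wrky60 ratio to the wild type ran from 0.36 to 0.51 for BCAT4 and from 0.16 to 0.38 for AT2G31790. Against the median of the other Pst arrays without wrky60, the ratios were 0.83 and 0.70 in wrky53. In the double mutant they were -0.42 and -0.16 against that median. Between wrky53 and the double mutant, BCAT4 fell just short of 2-fold with no floor (0.996) and with median centring (0.988). Counts of the other biosynthesis genes at 2-fold were the reported ones in 66 of 71 recomputations. With the floor at the 25th percentile, 1 gene, AOP3, was counted for wrky40, for wrky53 and for wrky60. For wrky60, 1 gene was also counted with quantile normalization, MYC4, and 1, AOP3, when genes below the floor were included. The correlation of both members lay between 0.96 and 0.98 in all settings. By Spearman rho, 4 of the 5 genes named as most like BCAT4 and 2 of the 5 named for AT2G31790 were among the first 6, ties included. Signals near the floor, such as those of SDI2 and AOP3, are the least certain.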
